A study of Mus musculus with 12 samples.

Results

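The mRNA of 10 early response genes was followed in mouse macrophages: Egr1, Egr2 and Egr3, Nr4a1, Nr4a2 and Nr4a3, Ier2, Ier3 and Ier5, and Myc. The genes were chosen by name and found in the deposited count table through the Ensembl identifier of each symbol. All 10 were found among the 54232 genes of the table, and all 10 were among the 12771 genes with enough reads to be tested. The cells were RAW264.7, a mouse macrophage line, of 3 genotypes: wild type, Ing4-/- and Socs1-/-. ING4 is known as a chromatin reader of the HBO1 acetyltransferase complex and SOCS1 as an inhibitor of JAK kinases. Cells of every genotype were kept without stimulus or exposed for 3 h to 100 ng/ml of LPS, lipopolysaccharide, which Toll-like receptor 4 senses as a sign of Gram-negative bacteria, so there were 6 groups of 2 libraries. The sources used here do not state how the genes were disrupted or whether a knockout line is 1 clone, so an effect of the lost gene and a difference between lines cannot be told apart. Whether both libraries of a group stem from different cultures is not stated, and a p-value here reflects no more than the spread of the libraries, which may be technical.

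Immediate early genes are transcribed within minutes of a signal, from promoters that are ready before the signal comes and need no new protein synthesis. Growth factor, stress and Toll-like receptor signals reach them through the ERK and p38 kinases, which act on SRF with its ETS partners, on CREB, and through NF-kB. EGR1, EGR2 and EGR3 are zinc finger transcription factors that bind GC-rich sites, and the NAB proteins hold them back. NR4A1, NR4A2 and NR4A3 (Nur77, Nurr1 and Nor1) are orphan nuclear receptors that act without a known physiological ligand and limit inflammatory gene expression in macrophages. IER2 and IER5 are small nuclear proteins, IER3 (IEX-1) is a short protein that affects cell survival and NF-kB and ERK signalling, and MYC is a transcription factor that pairs with MAX and drives ribosome, nucleotide and polyamine synthesis. Many of these transcripts are short-lived, so a sample taken at 3 h shows what is left of, or still made after, the first burst.

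The depth was 17250815 to 24377950 counts per library, and levels are given in CPM, counts relative to a library size that was scaled with edgeR's TMM method. The first LPS-treated Socs1-/- library stood apart from the other 11. On the first principal component, which held 54.4% of the variance, it lay at -16.2, whereas the other 5 LPS-treated libraries lay between 62.4 and 74.4 and the untreated libraries between -66.1 and -41.7. Results that rest on it are therefore given with and without it. The mitochondrial share of its counts was 0.829%, within the range of 0.548% to 2.11% over all libraries, and the highest shares were in the second untreated and second LPS-treated Ing4-/- libraries (2.11% and 2.09%). The 10 macrophage markers checked summed to 12860 to 24610 CPM, the 3 T and NK cell, 3 epithelial and 2 erythroid markers had 0 counts in every library, and the neutrophil, B cell, dendritic cell and fibroblast markers reached at most 5.11 CPM in sum. The targeted transcripts did not check the genotype labels: the counts of Ing4 were 2 to 10 in the wild-type libraries and 6 to 29 in those of Ing4-/-, and Socs1 had 148 to 185 counts in the LPS-treated libraries of the other genotypes and 67 to 127 in those of Socs1-/-.

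Per kilobase of exon, the untreated wild-type cells held most Ier3 among the 10 genes, at a mean of 30.4 CPM per kb, followed by Ier2 (26.5), Ier5 (19.7) and Egr1 (17.04). Egr3 (3.24), Egr2 (3.16), Myc (1.29), Nr4a1 (1.08) and Nr4a2 (0.541) stood lower on this scale, and Nr4a3 was close to absent at 0.00733 CPM per kb. After LPS the wild-type order on the same scale was led by Ier3 (582.8 CPM per kb) and Ier2 (46.8), and Myc had moved up to 29.4, above Ier5 (23.2) and Egr1 (17.2). In untreated wild-type cells the IER genes and Egr1 were thus the most abundant of the 10 and the NR4A genes the least. In untreated Ing4-/- cells Nr4a2 (2.11 CPM per kb) and Nr4a1 (1.46) stood above Egr3 (0.706) and Egr2 (0.589).

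**Figure D1:**
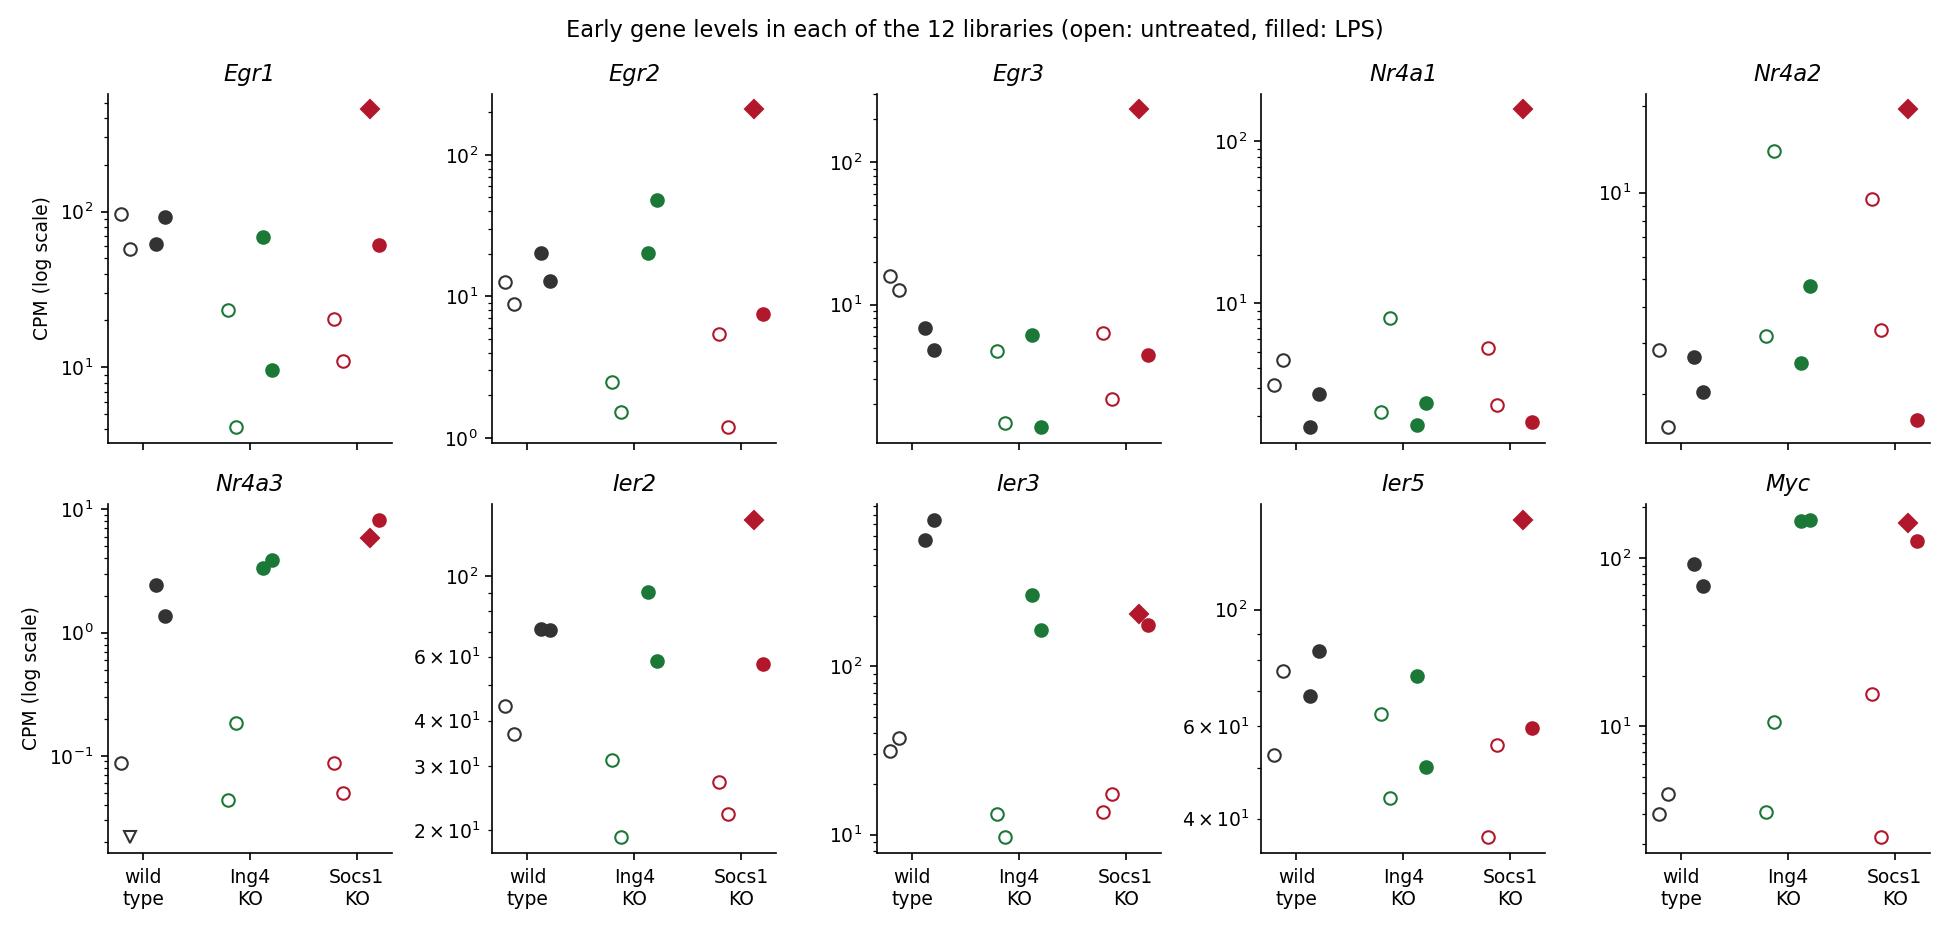
Level of each gene in each of the 12 libraries, in CPM on a log axis that differs between panels, by genotype, with open symbols for untreated and filled symbols for LPS-treated libraries. The diamond is the first LPS-treated Socs1-/- library, which is the highest of the 12 in 7 of the 10 panels, and the triangle at the bottom of the Nr4a3 panel is a library with 0 counts.

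Ier3, Myc and Nr4a3 were the early genes with the largest rise over untreated cells after 3 h of LPS in wild type. They were 3 of the 10 genes called higher by edgeR at an adjusted p under 0.05, against 1.89% of all tested genes, and 0 of the 10 were called lower, against 1% of all tested genes. Over the 10 genes the median log2 change was 0.43, beside 0.01 over all genes tested. For Egr1, Nr4a2 and Ier5 the treated and untreated libraries overlapped. Despite its rise, Nr4a3 remained the least abundant of the 10 after LPS, at 0.316 CPM per kb.

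Ier3 (ENSMUSG00000003541, chromosome 17, 35821684 to 35822923, plus strand, GRCm38) had 31.3 and 37.3 CPM in untreated wild-type cells and 569.9 and 748 CPM after LPS. In Ing4-/- it had 13.2 and 9.63 CPM untreated and 268 and 165 CPM after LPS. In Socs1-/- it had 13.6 and 17.4 CPM untreated and 207 and 176 CPM after LPS. In bulk RNA, fewer expressing cells and less RNA per cell cannot be told apart. Every LPS-treated library stood above every untreated one, and within each treatment both wild-type libraries stood above all 4 knockout libraries. The log2 change with LPS was 4.26 (SE 0.31, edgeR quasi-likelihood adjusted p = 0.00049) in wild type, 4.24 (SE 0.31, adjusted p = 0.00036) in Ing4-/- and 3.63 (SE 0.30, adjusted p = 0.00081) in Socs1-/-. Ier3 was called in all 3 genotypes with any 1 of the 12 libraries left out, but in Socs1-/- the adjusted p was 0.14 when the 2 Socs1-/- groups were fitted alone, a fit that called 0 of 11936 genes (log2 3.60).

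Myc (ENSMUSG00000022346, chromosome 15, 61985391 to 61990374, plus strand) had 3.03 and 3.98 CPM in untreated wild-type cells and 92.1 and 67.7 CPM after LPS. In Ing4-/- it went from 3.10 and 10.5 to 166 and 169 CPM, and in Socs1-/- from 15.5 and 2.19 to 161 and 127 CPM. Untreated levels differed up to 7.09-fold between the libraries of a group, and the LPS-treated levels up to 1.36-fold. The log2 change was 4.51 (SE 0.88, edgeR adjusted p = 0.038) in wild type, 4.62 (SE 0.87, adjusted p = 0.022) in Ing4-/- and 4.01 (SE 0.84) in Socs1-/-. The last did not pass in edgeR's main test with all libraries (adjusted p = 0.056). With all libraries it passed in DESeq2 (adjusted p = 3.5e-07), limma-voom (0.012) and edgeR with a replicate block within genotype (0.037). In the main test it passed without the first LPS-treated Socs1-/- library (log2 3.83, SE 0.91, adjusted p = 0.029) or without the first untreated Socs1-/- library (log2 6.03, adjusted p = 0.025).

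Nr4a3 (ENSMUSG00000028341, chromosome 4, 48045153 to 48086447, plus strand) was at the limit of detection without LPS. Untreated libraries held 0 to 0.184 CPM, and 1 of the 2 wild-type libraries had 0 counts. LPS-treated libraries held 2.42 and 1.37 CPM in wild type, 3.37 and 3.87 CPM in Ing4-/- and 5.87 and 8.26 CPM in Socs1-/-. The 3 LPS-treated groups did not overlap, in the order Socs1-/-, Ing4-/-, wild type. Because 2 counts stood against 72 in wild type, the raw ratio was 42.2 with an exact 95% interval of 11.2 to 354.7, and in Socs1-/- 3 counts against 291 gave 98.9 (33.5 to 482). These intervals cover counting error only. The fitted log2 change was 5.23 (SE 0.83, edgeR adjusted p = 0.016) in wild type, 4.94 (SE 0.73, adjusted p = 0.0083) in Ing4-/- and 6.55 (SE 0.79, adjusted p = 0.0043) in Socs1-/-. Unlike the rest of its family, Nr4a3 was lower in the first than in the second LPS-treated Socs1-/- library.

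Leaving out 1 library of a compared pair of groups ended many calls of Nr4a3 and Myc, while the changes themselves stayed large. In wild type neither passed when any of the 4 wild-type libraries was left out (edgeR adjusted p of 0.05 to 0.12 for Nr4a3 and 0.13 to 0.27 for Myc). The log2 change was then 4.27 to 4.72 for Myc and 4.32 to 8.31 for Nr4a3, the 8.31 against the single untreated library with 0 counts, where the fitted value is no bound. Myc also missed the threshold without either LPS-treated Ing4-/- library (0.069 each), with its change still at 4.51. In Ing4-/- neither gene passed without either untreated Ing4-/- library (0.054 to 0.13), at log2 changes of 4.25 and 6.19 for Nr4a3 and 3.99 and 5.75 for Myc. There Myc also missed it without either LPS-treated library (0.072 and 0.079, log2 4.63 and 4.61). In Socs1-/- Nr4a3 did not pass without either untreated Socs1-/- library (0.055 and 0.059, log2 6.98 and 6.25) or in the fit to the 2 Socs1-/- groups alone (0.21, log2 6.54). In the authors' deposited table for LPS in wild type, the same 3 of the 10 genes are listed as higher, Ier3 with a log2 of 4.0, Myc with 3.13 and Nr4a3 with 2.99. The deposited values come from another fit, and those of Myc and Nr4a3 are smaller than the 4.51 and 5.23 fitted here. Sizes are therefore not to be compared between the 2 fits.

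The stretches before the RefSeq starts of Nr4a3 and Ier3 are shown because both genes rose with LPS in all 3 genotypes. Both stretches end at the base before the GENCODE gene start and hold no annotated exon. In Nr4a3 (chr4:48045055-48045152, plus strand, RefSeq on GRCm38.p6, 98 bases) the capitals mark 3 copies of the core of the cAMP response element bound by CREB (TGACG on either strand). In Ier3 (chr17:35821463-35821683, plus strand, 221 bases) the capitals mark 2 matches to a loose NF-kB motif, written as 3 G, any 5 bases and 2 C and searched on both strands.
Nr4a3: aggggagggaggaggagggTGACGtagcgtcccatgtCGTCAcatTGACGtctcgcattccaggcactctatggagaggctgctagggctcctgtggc
Ier3: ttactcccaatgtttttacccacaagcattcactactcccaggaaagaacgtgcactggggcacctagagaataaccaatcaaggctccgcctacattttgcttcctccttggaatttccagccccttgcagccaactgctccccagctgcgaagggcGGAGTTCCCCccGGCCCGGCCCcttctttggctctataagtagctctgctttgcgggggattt
Of 32851 windows of 250 bases before a RefSeq start, 17.8% held the TGACG core and 45.8% held the loose NF-kB motif, so neither match is rare. A match is a description of the letters and not a binding site.

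Ier2 (ENSMUSG00000053560, chromosome 8, 84661331 to 84662852, minus strand) was higher after LPS in every genotype by a smaller step. It had 43.8 and 36.7 CPM untreated and 71.4 and 70.9 CPM after LPS in wild type. In Ing4-/- it had 31.2 and 19.1 CPM untreated and 90.5 and 58.2 CPM after LPS, and in Socs1-/- 27.1 and 22.1 CPM untreated and 143 and 57.2 CPM after LPS. No untreated library of any genotype reached the lowest LPS-treated one. The log2 change was 0.82 (SE 0.41, edgeR adjusted p = 0.27) in wild type, 1.57 (SE 0.42, adjusted p = 0.054) in Ing4-/- and 2.03 (SE 0.42, adjusted p = 0.051) in Socs1-/-, so none of the 3 passed in this test with all libraries. With all libraries DESeq2 called it in Ing4-/- (adjusted p = 0.0032) and Socs1-/- (0.00011). EdgeR called it in both with a replicate block (0.023 and 0.018) and with a replicate block within genotype (0.013 and 0.013). An edgeR fit to the compared groups alone called it in wild type (log2 0.81, adjusted p = 0.018) and Ing4-/- (log2 1.55, adjusted p = 0.035). Those fits called 18.2% and 15.2% of their genes, and the one in Socs1-/- called 0%. Without the first LPS-treated Socs1-/- library the change was called in Ing4-/- (log2 1.57, SE 0.27, adjusted p = 0.0044) and in Socs1-/- (log2 1.22, SE 0.32, adjusted p = 0.033), and in wild type the adjusted p was 0.076.

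Ier5 (ENSMUSG00000056708, chromosome 1, 155096361 to 155099636, minus strand), which is known to act in the heat shock response, had 52.7 and 76.4 CPM untreated and 68.6 and 83.3 CPM after LPS in wild type, and 63.3 and 43.8 CPM untreated and 74.8 and 50.1 CPM after LPS in Ing4-/-. These groups overlap. In Socs1-/- it had 36.8 and 55.3 CPM untreated and 148 and 59.5 CPM after LPS, a log2 change of 1.17 (SE 0.43, edgeR adjusted p = 0.22) that was 0.37 (SE 0.36, adjusted p = 0.54) without the first LPS-treated library.

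In Ing4-/- the genes called higher after LPS were again Nr4a3, Ier3 and Myc, 3 of 10 beside 4.73% of all genes. Without the first LPS-treated Socs1-/- library, which is in neither group of this comparison but shares the estimate of spread, Egr2 and Ier2 were called too, 5 of 10 beside 11.2% of 13262 genes. In Socs1-/- the called genes were Nr4a3 and Ier3, 2 of 10 beside 1.57%, and Nr4a3, Ier2, Ier3 and Myc without that library, 4 of 10 beside 9.03%. DESeq2, with all libraries, called 8 of 10 in Socs1-/- beside 4.86% and put Egr1, Egr2, Egr3 and Nr4a1 among them. Wild type gave the same 3 genes with and without the library, the latter beside 7.79%. Among the 10 genes, libraries did not overlap between treated and untreated for 5 higher and 2 lower genes in wild type (30.7% and 30.7% of all genes), 5 and 0 in Ing4-/- (29.1% and 28.6%), and 7 and 0 in Socs1-/- (22.5% and 20%). The 2 lower in wild type were Egr3 and Nr4a1, neither of them called.

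**Figure D2:**
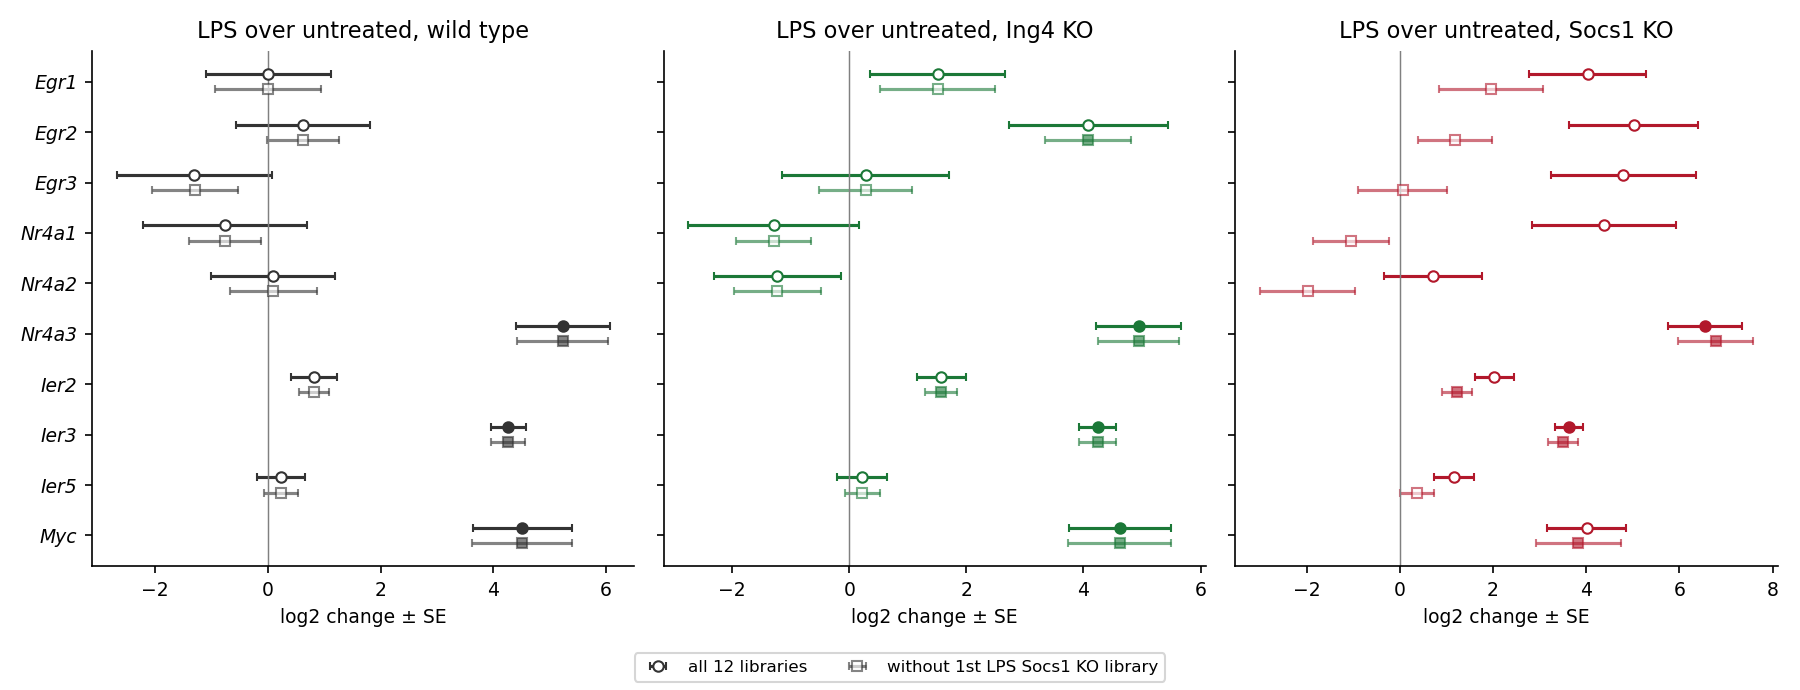
Log2 change with LPS in each genotype, with bars of 1 SE from edgeR, for all 12 libraries (circles) and without the first LPS-treated Socs1-/- library (squares), with filled symbols for an adjusted p under 0.05. Ier3, Myc and Nr4a3 lie at 3.51 or above in all 3 panels under both fits, whereas Egr1, Egr2, Egr3, Nr4a1 and Nr4a2 in Socs1-/- shift to the left when the library is left out.

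The EGR genes, Nr4a1 and Nr4a2 followed another pattern. None of the 5 was called after LPS in wild type, and in the LPS-treated Socs1-/- group they were far apart between the 2 libraries. The first of these libraries held the highest level of the 12 for 7 of the 10 early genes (Egr1, Egr2, Egr3, Nr4a1, Nr4a2, Ier2 and Ier5), beside 7.96% of all tested genes. For Egr1, Egr2, Egr3 and Nr4a1 it was more than 4-fold above each of the other 11 libraries, which held for 18 of 12771 genes, or 0.141%. These choices were made after the values were seen and carry no test.

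Egr1 (ENSMUSG00000038418, chromosome 18, 34859823 to 34864984, plus strand) is widely used as a marker of recent signalling. It had 95.8 and 57.1 CPM untreated and 62.2 and 92.0 CPM after LPS in wild type, which overlap. Ing4-/- libraries held 23.5 and 4.15 CPM untreated and 68.8 and 9.63 CPM after LPS, and in both states the lower value was in the library with the higher mitochondrial share. Egr3 and the IER genes were also lower in that library in both states, whereas the NR4A genes and Myc were higher there. A link with the mitochondrial share was not tested. Socs1-/- libraries held 20.3 and 11.1 CPM untreated and 452 and 61.2 CPM after LPS. The second LPS-treated Socs1-/- library was thus close to the lower wild-type library of that state (61.2 against 62.2 CPM), and the first was 7.38-fold above the second. The log2 change with LPS in Socs1-/- was 4.03 (SE 1.26, edgeR adjusted p = 0.17), and 1.96 (SE 1.12, adjusted p = 0.29) without the first library.

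Egr2 (ENSMUSG00000037868, chromosome 10, 67535475 to 67542188, plus strand), a factor also known from myelin formation and macrophage differentiation, had 12.6 and 8.87 CPM untreated and 20.2 and 12.8 CPM after LPS in wild type. In Ing4-/- it had 2.48 and 1.52 CPM untreated and 20.2 and 47.7 CPM after LPS. In Socs1-/- it had 5.42 and 1.19 CPM untreated and 209 and 7.53 CPM after LPS. LPS-treated libraries were above untreated ones in each genotype. The log2 change was 0.62 (SE 1.19, edgeR adjusted p = 0.80) in wild type, 4.08 (SE 1.36, adjusted p = 0.096) in Ing4-/- and 5.02 (SE 1.39, adjusted p = 0.13) in Socs1-/-. Without the first LPS-treated Socs1-/- library the Ing4-/- change was the same with a smaller error and was called (log2 4.08, SE 0.74, adjusted p = 0.0071), and the Socs1-/- change was 1.18 (SE 0.80, adjusted p = 0.37). The change in Ing4-/- exceeded that in wild type by 3.45 on the log2 scale (SE 1.75, adjusted p = 1.0 for the interaction), a difference that did not pass. With a replicate block within genotype Egr2 was called in Ing4-/- (log2 3.95, adjusted p = 0.022) and Socs1-/- (log2 4.36, adjusted p = 0.043), and Egr1 in Socs1-/- (log2 3.51, adjusted p = 0.038).

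Egr3 (ENSMUSG00000033730, chromosome 14, 70077203 to 70082614, plus strand), known from T cells and muscle spindles, was lower after LPS in wild type, at 6.87 and 4.77 CPM against 15.8 and 12.7 CPM untreated. This change was -1.30 on the log2 scale (SE 1.38, edgeR adjusted p = 0.63), and a fit to the 2 wild-type groups alone gave -1.31 with an adjusted p of 0.025, in a fit that called 18.2% of its genes. Ing4-/- libraries held 4.75 and 1.47 CPM untreated and 6.13 and 1.38 CPM after LPS, which overlap. Socs1-/- libraries held 6.33 and 2.19 CPM untreated and 234 and 4.44 CPM after LPS, so that the second treated library lay between the untreated ones and the first 52.8-fold above the second. The log2 change of 4.80 (SE 1.56, adjusted p = 0.18) in Socs1-/- was 0.06 (SE 0.96, adjusted p = 0.98) without the first library.

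Nr4a1 (ENSMUSG00000023034, chromosome 15, 101254269 to 101274795, plus strand) showed the widest gap. It had 3.12 and 4.43 CPM untreated and 1.72 and 2.74 CPM after LPS in wild type, and 2.14 and 8.11 CPM untreated and 1.76 and 2.43 CPM after LPS in Ing4-/-. In Socs1-/- it had 5.33 and 2.34 CPM untreated and 158 and 1.85 CPM after LPS, an 85.1-fold difference between replicates. The other 5 LPS-treated libraries spanned 1.72 to 2.74 CPM, so the first LPS-treated Socs1-/- library was 57.7-fold above the highest of them. The log2 change with LPS was -0.76 (SE 1.46, edgeR adjusted p = 0.81) in wild type. In Socs1-/- it was 4.38 (SE 1.54, adjusted p = 0.21) with all libraries and turned to -1.05 (SE 0.82, adjusted p = 0.44) without the first treated library.

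Nr4a2 (ENSMUSG00000026826, chromosome 2, 57106830 to 57124003, minus strand) ranged from 1.54 to 19.4 CPM over the 12 libraries. Wild-type libraries held 2.85 and 1.54 CPM untreated and 2.69 and 2.03 CPM after LPS. Ing4-/- libraries held 3.18 and 14.0 CPM untreated and 2.56 and 4.76 CPM after LPS, and Socs1-/- libraries 9.54 and 3.33 CPM untreated and 19.4 and 1.63 CPM after LPS. The treated and untreated libraries overlapped in every genotype. The first LPS-treated Socs1-/- library was 11.9-fold above the second.

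The windows before 1 start each of Egr2 and Nr4a1 are shown because both genes were far higher in the first LPS-treated Socs1-/- library than in the second. Both windows lie in an intron of longer transcripts of the same gene and outside any GENCODE exon. Egr2 has several RefSeq starts, and the start shown was picked because its window holds both a CArG box and an ETS core. In Egr2 (chr10:67537316-67537565, plus strand, GRCm38.p6) the capitals mark a CArG box, the motif of SRF, and ETS cores (CCGGAA on either strand, 2 of the 3 overlapping). A second CArG box of Egr2 lies before the next start (chr10:67537787-67537816). In Nr4a1 (chr15:101266596-101266845, plus strand) the capitals mark 4 TGACG cores, 1 ETS core and 1 EGR site (GCGGGGGCG on either strand).
Egr2: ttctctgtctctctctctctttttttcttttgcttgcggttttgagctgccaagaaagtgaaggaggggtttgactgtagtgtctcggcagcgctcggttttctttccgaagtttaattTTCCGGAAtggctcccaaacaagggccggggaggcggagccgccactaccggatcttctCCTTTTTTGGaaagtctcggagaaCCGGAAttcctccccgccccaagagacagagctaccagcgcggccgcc
Egr2, second box: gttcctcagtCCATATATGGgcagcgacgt
Nr4a1: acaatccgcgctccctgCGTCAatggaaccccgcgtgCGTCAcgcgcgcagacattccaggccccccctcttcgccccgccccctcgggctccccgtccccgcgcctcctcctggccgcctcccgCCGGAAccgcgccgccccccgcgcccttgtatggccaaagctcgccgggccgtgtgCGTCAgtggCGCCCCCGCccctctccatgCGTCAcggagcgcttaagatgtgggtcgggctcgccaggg
A CArG box was in 1.47% of the 32851 windows, an EGR site in 2.57% and an ETS core in 12%. For the Egr2 window the shares of the CArG box and ETS core say nothing of rarity, since it was picked for holding both. The full cAMP response element TGACGTCA, in 1.55% of windows, was in none of the 10 windows of the 6 early genes with an entry, which says only that these letters are not there. Of these 6 genes, Nr4a2 had 4 TGACG cores, and Nr4a2 and Ier5 had 1 match each to the loose NF-kB motif. Windows before other starts of Egr2 also held matches to both motifs. Egr1, Egr3, Ier2 and Myc had no entry.

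The early genes had a higher median fold between the 2 libraries of a group than all tested genes had, in each of the 6 groups. Their median fold between libraries was 1.40 to 2.49 in the other 5 groups, beside 1.16 to 1.24 over all tested genes. In the LPS-treated Socs1-/- group it was 4.30 beside 1.36. There, 5 of the 10 early genes (Egr1, Egr2, Egr3, Nr4a1 and Nr4a2) differed more than 4-fold, beside 7.41% of all genes. In untreated and LPS-treated wild type 0 did, beside 0.572% and 0.846%. In untreated Ing4-/-, LPS-treated Ing4-/- and untreated Socs1-/- 2 did in each, beside 1.15%, 1.46% and 2.6%. Ier3 and Myc differed 1.17-fold and 1.27-fold in this pair and Nr4a3 0.710-fold, first over second. Ier2 and Ier5 lay between these and the EGR genes, at 2.505 and 2.49.

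**Figure D3:**
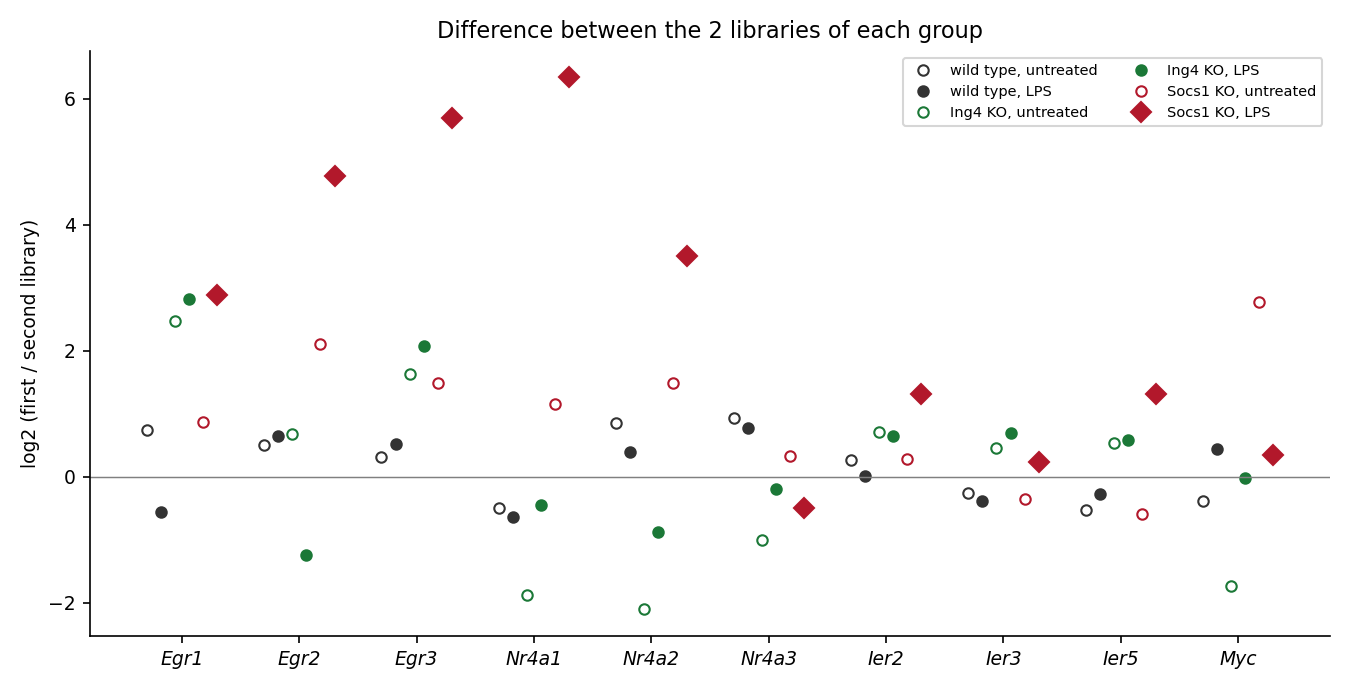
Log2 ratio of the first over the second library of each group for each gene, from log2 CPM with a prior count of 2. The diamonds of the LPS-treated Socs1-/- pair stand above every other pair for Egr1, Egr2, Egr3, Nr4a1, Nr4a2, Ier2 and Ier5 and near 0 for Ier3 and Myc.

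Lists of related genes were compared between these 2 libraries. Of 29 tested further immediate early genes, 11 were more than 4-fold higher in the first LPS-treated Socs1-/- library than in the second and 0 lower, beside 2.66% and 4.75% of all genes (ratios of CPM with a prior count of 2). The other 18 were within 4-fold, among them Sgk1, Klf2, Plk2, Gadd45b and Atf3, whose first-over-second ratios were 0.251, 0.418, 0.491, 0.600 and 0.698. The AP-1 subunit Fosb had 22.5 against 0.112 CPM, the Kruppel-like factor Klf4 37.2 against 0.731 CPM, the synaptic gene Arc 87.3 against 4.16 CPM and the AP-1 subunit Jun 206 against 19.4 CPM. Of 10 EGR target genes 0 were higher and 2 lower by that measure: the cytokine Tnf had 1380 against 10530 CPM and the prostaglandin synthase Ptgs2 118 against 1508 CPM. Of 27 tested genes of the ERK, p38 and SRF route, 2 were higher and 1 lower. The higher were the kinase gene Rps6ka5, at 20.4 against 1.97 CPM, and the ETS factor gene Elk3, at 76.8 against 13.1 CPM. The kinase gene Map3k8, which carries the Toll-like receptor signal to ERK, was the lower, at 7.13 against 37.1 CPM. For all 3 the first library was near the untreated libraries. Those held 13.8 to 19.3 CPM of Rps6ka5, 63.6 to 105 CPM of Elk3 and 5.02 to 7.46 CPM of Map3k8. These genes were named after their values in this pair were seen.

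Without LPS, 5 of the 10 early genes were lower in both knockouts than in wild type without overlap of libraries: Egr1, Egr2, Egr3, Ier2 and Ier3. This was 5 of 10 in Ing4-/- beside 20.1% of all genes and 5 of 10 in Socs1-/- beside 20.4%. All 4 untreated knockout libraries were below both wild-type libraries for these 5 genes, as for 11.4% of all genes. The knockouts share the wild-type libraries, so the 2 comparisons are not independent. Nr4a2 was higher in both knockouts without overlap, beside 18.4% and 19% of genes.

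None of these differences passed edgeR's test, which called 0 of the 10 genes in either knockout (0.141% and 0.047% of all genes, Ing4-/- and Socs1-/-). At an unadjusted p under 0.05 it was 1 of 10 in each, Ier3, beside 5.25% and 5.15% of all genes, and DESeq2 called Ier3 alone in each, beside 0.873% and 0.655%. The log2 difference of Ier3 was -1.59 (SE 0.28, edgeR adjusted p = 0.095) in Ing4-/- and -1.15 (SE 0.28, adjusted p = 0.37) in Socs1-/-, with a DESeq2 adjusted p of 0.0001 and 0.035. The authors' deposited tables list Ier3 with log2 -1.46 and -1.05. For the EGR genes the log2 differences were larger and less certain, -2.47 (SE 1.18) for Egr1, -2.42 (SE 1.30) for Egr2 and -2.19 (SE 1.43) for Egr3 in Ing4-/-, and -2.28, -1.69 and -1.74 in Socs1-/- (all adjusted p = 1.0). Ier2 was at -0.68 and -0.71, and Nr4a2 at 1.96 and 1.55 (all adjusted p = 1.0). Single libraries moved these differences without turning their direction. With 1 library left out in turn, the difference in Ing4-/- ranged from -4.20 to -1.70 for Egr1, from -2.81 to -2.11 for Egr2, from -3.27 to -1.59 for Egr3, from -1.08 to -0.37 for Ier2 and from 0.53 to 2.66 for Nr4a2. In Socs1-/- it ranged from -2.79 to -1.86 for Egr1, from -3.16 to -0.99 for Egr2, from -2.70 to -1.17 for Egr3, from -0.86 to -0.57 for Ier2 and from 0.60 to 2.11 for Nr4a2. Ier3 ranged from -1.83 to -1.38 and from -1.34 to -0.98. A fit to the 2 untreated groups alone called Egr2 and Ier3 in Ing4-/- (adjusted p = 0.012 and 0.0092), beside 1.48% of its genes.

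After LPS, Ier3 was lower in all 4 knockout libraries than in both wild-type libraries, and Myc and Nr4a3 were higher. This was 1 lower and 2 higher of 10 in each knockout, beside 18.2% and 19.4% of all genes in Ing4-/- and 18% and 16.8% in Socs1-/-. Of all tested genes, 8.43% were lower and 7.87% higher in all 4 knockout libraries in this way. The log2 difference of Ier3 was -1.61 (SE 0.28) in Ing4-/- and -1.78 (SE 0.28) in Socs1-/-, with an edgeR adjusted p of 0.094 in both. Again edgeR called 0 of the 10 genes (0.102% and 0.0626% of all genes). At an unadjusted p under 0.05 it was Ier3 in Ing4-/-, and Egr3, Nr4a1, Nr4a3 and Ier3 in Socs1-/-, beside 7.09% and 10.6% of all genes. DESeq2 called Ier3 in Ing4-/- (adjusted p = 3.8e-05) and Ier3 (2.1e-06), Nr4a1 (0.026) and Nr4a3 (0.044) in Socs1-/-, beside 0.965% and 1.64%.

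In LPS-treated cells Myc exceeded its wild-type level by 1.07 on the log2 scale (SE 0.75, edgeR adjusted p = 0.88) in Ing4-/- and by 0.85 (SE 0.74, adjusted p = 0.73) in Socs1-/-. Nr4a3 was higher by 0.94 (SE 0.57, adjusted p = 0.85) and 1.90 (SE 0.57, adjusted p = 0.31). For the genes that were high in the first LPS-treated Socs1-/- library, the log2 difference from wild type after LPS turned with that library. It was 1.74 for Egr1, 2.72 for Egr2, 4.36 for Egr3 and 5.16 for Nr4a1 with all libraries (adjusted p of 0.34 to 0.62), and -0.33, -1.13, -0.39 and -0.26 without it. The authors' deposited table for this comparison lists Nr4a1 (log2 2.4), Egr3 (2.15) and Nr4a3 (1.64) as higher and Ier3 (-1.68) as lower. Deposited values are from the authors' own fit, and those of Nr4a1 and Egr3 are smaller than the 5.16 and 4.36 here. The LPS response of Socs1-/- less that of wild type was 4.02, 4.40, 6.10 and 5.13 for Egr1, Egr2, Egr3 and Nr4a1 with all libraries, and 1.95, 0.55, 1.35 and -0.29 without the first LPS-treated Socs1-/- library (adjusted p = 1.0 each in both fits). EdgeR called 0 of the 10 genes for either knockout's difference of response (0% of all genes), 0 and 4 had an unadjusted p under 0.05 in Ing4-/- and Socs1-/- (0.415% and 0.799% of all genes), and DESeq2 called 0.

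**Figure D4:**
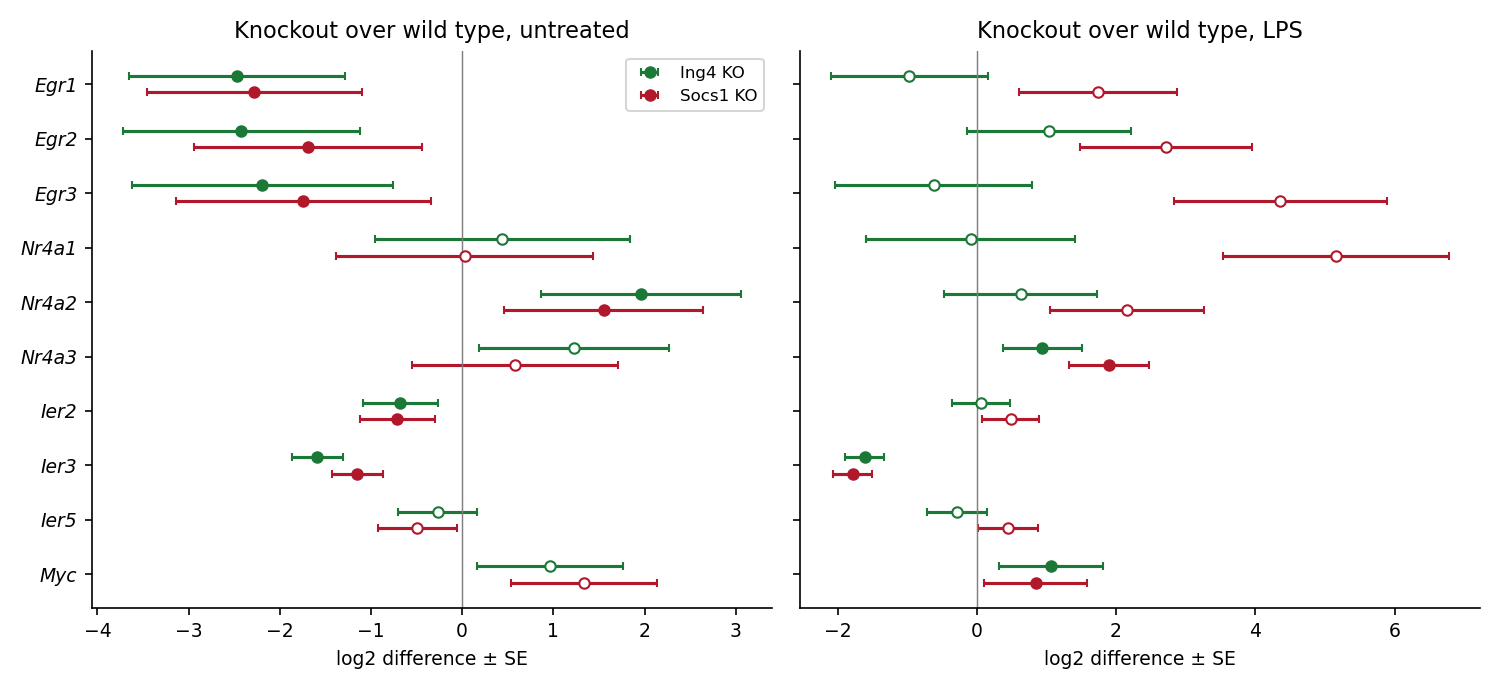
Log2 difference of each knockout from wild type, untreated on the left and after LPS on the right, with bars of 1 SE from edgeR over all 12 libraries and filled symbols where the libraries of the 2 groups do not overlap. Ier3 lies between -1.78 and -1.15 in all 4 comparisons with short bars, whereas the bars of the EGR and NR4A genes are long.

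The order of the group means differed between the genes. For Ier3 it was LPS-treated wild type, the 2 LPS-treated knockouts, which overlapped each other, then untreated wild type, Socs1-/- and Ing4-/-, all other neighbours being separate. For Myc it was LPS-treated Ing4-/-, Socs1-/- and wild type, separate from each other, above the 3 untreated groups, which overlapped. For Egr1, Nr4a2 and Ier5 every neighbouring pair of groups overlapped.

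Relatives, partners and targets of the 10 genes were counted in lists. Over all genes, 1.89%, 4.73% and 1.57% were called higher and 1%, 3.29% and 0.407% lower after LPS in wild type, Ing4-/- and Socs1-/-. Without the first LPS-treated Socs1-/- library these shares were 7.79%, 11.2% and 9.03% higher and 6.69%, 9.25% and 6.73% lower, and counts from that fit are to be read against them. Of 29 tested further immediate early genes, edgeR called 8, 8 and 10 higher and 0 lower after LPS in wild type, Ing4-/- and Socs1-/-, with a median log2 change of 1.07, 1.16 and 2.10 beside 0.01, 0 and 0.01 over all genes. The growth arrest gene Gadd45b rose by 3.80, 4.35 and 3.98, the mRNA decay factor Zfp36 by 3.68, 3.85 and 3.60 and the nuclear protein gene Csrnp1 by 3.36, 3.77 and 4.13 on the log2 scale. With that library left out 12, 13 and 12 rose and 1, 2 and 2 fell, and the median in Socs1-/- was 1.21 in place of 2.10. Of 10 genes known as EGR targets 5, 6 and 6 rose and 0 fell, with medians of 2.34, 2.75 and 2.73. Among them the adhesion molecule Icam1 rose by 2.72, 3.23 and 2.78, whereas the Egr1 libraries of treated and untreated wild-type cells overlapped.

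Of 6 tested family relatives and corepressors, 0 passed in wild type and Socs1-/-. In Ing4-/- the corepressor gene Nab1 rose by 0.72 and the nuclear receptor partner Rxra fell by 2.09. Of 27 tested genes of the signal route 0, 1 and 1 rose and 1, 1 and 0 fell. The SRF coactivator gene Mrtfa fell by 1.47 in wild type and 1.60 in Ing4-/-, the kinase gene Mapkapk2 rose by 2.11 in Ing4-/- and Srf by 1.28 in Socs1-/-. In the fit without the first LPS-treated Socs1-/- library this route had 3, 5 and 4 higher and 4, 4 and 3 lower genes of 27, beside 7.79%, 11.2% and 9.03% higher and 6.69%, 9.25% and 6.73% lower over all genes.

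Of 10 tested partners and rivals of MYC 0 rose, and in Ing4-/- the MAX-binding repressors Mxd4 and Mnt fell by 2.32 and 1.57. Without that library 2, 3 and 2 rose and 3, 3 and 3 fell in wild type, Ing4-/- and Socs1-/-. Of 28 MYC target genes 1, 4 and 2 rose and 0 fell, with medians of 0.27, 0.39 and 0.34, so that the 1 in wild type is near the share over all genes. The ornithine decarboxylase gene Odc1, which starts polyamine synthesis, rose by 3.04, 3.29 and 1.91. In LPS-treated Socs1-/- it differed from wild type by -2.34 on the log2 scale (SE 0.27, edgeR adjusted p = 0.023), where Myc itself was not lower. Without the first LPS-treated Socs1-/- library the difference was -2.33 (SE 0.37, adjusted p = 0.14), in a fit that called 0 of 13262 genes in this comparison. Odc1 stood below wild type in every knockout library of either state. Untreated libraries held 479.9 and 484.8 CPM in wild type, 173.5 and 210.2 CPM in Ing4-/- and 266.2 and 152 CPM in Socs1-/-. After LPS these were 4186 and 3752 CPM, 1801 and 1963 CPM, and 785.5 and 787.2 CPM. The ribosome assembly gene Rrs1 rose by 1.30 in Ing4-/- and 1.10 in Socs1-/-.

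The genes whose levels ran most like each early gene over the 12 libraries were taken by Pearson correlation of log2 CPM, as a description without a test, since all points share the LPS axis and the library that stood apart. Nr4a3 ran closest to the RNA-binding gene Rc3h1 (r = 0.991) and the NF-kB subunit Rel (0.990), Ier3 to the stress factor Atf3 (0.986) and the glucose transporter Slc2a1 (0.976), and Myc to Ywhag (0.974). Ier2 ran closest to Srf (0.963), whose product binds CArG boxes, and Gnl2 (0.956). Nr4a1 ran closest to the chaperone gene Dnajb1 (0.942) and Fosb (0.935), and without the first LPS-treated Socs1-/- library these fell to 0.472 and 0.558. For Egr1 (Cfdp1, 0.879), Egr2 (Sertad1, 0.936), Egr3 (Bcl2l13, 0.931), Nr4a2 (Fryl, 0.940) and Ier5 (Btg2, 0.875) the closest gene had an r of 0.856, 0.886, 0.813, 0.903 and 0.687 without that library.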

How the data were processed

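RNA was measured in 12 libraries, 2 for each of 6 groups. The authors deposited 1 table of unscaled counts, whole reads for each Ensembl identifier, from stranded poly(A) libraries read as single reads of 75 bases, per the labels' protocols. The submitters' processing notes name HISAT, HTSeq, StringTie, DESeq2 and FastQC without versions, and whether counting used the strand is not stated in the sources used here. No annotated gene overlaps any of the 10 early genes. The notes name the human build GRCh38 and the treatment protocol names HEK293T cells, but all identifiers belong to mouse genes. Of 1084 positions listed in the deposited tables, 1028 (94.8%) equal those of GRCm38 (GENCODE M21), the source of all coordinates. The authors' deposited tables of changed genes also hold log2 fold changes and an adjusted p-value per gene, per the file headers, and the sign of the log2 value was that of the group means in all of them. The group means came from the per-library signal in these tables, which the authors deposited as values scaled between libraries by a method not stated, and which served for this check alone.

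Symbols came from the reference annotation (54079 of 54232 identifiers matched). Counts were tested in R 4.3.3 with edgeR 4.0.16: filterByExpr kept 12771 genes, libraries were scaled by TMM, and 1 robust quasi-likelihood model in which each of the 6 groups had its mean gave all contrasts, with p-values adjusted across the 12771 genes (Benjamini-Hochberg) and a call made under 0.05. The shared biological coefficient of variation was 0.289. The standard error was obtained by dividing the size of the log2 change by the square root of F. The depth of 17250815 to 24377950 counts means that 3 counts equal 0.123 to 0.174 CPM. The script was tested on simulated data. The 10 genes, the gene lists and the tests were chosen with earlier results of these data known, and a list is described by counts and medians without a test. The named genes are the 10 early genes, up to 4 called members of each list in a comparison by smallest p, and up to 2 genes most like each early gene, of which 1 is not reported here; any other gene is said to have been chosen on its values.

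The alternatives were DESeq2 1.42.0, limma-voom (limma 3.58.1), 2 other scalings (relative log expression and upper quartile), testing without a filter or only genes averaging at least 5 CPM, fitting the compared groups alone, blocking on the replicate number, calling at 0.01, and leaving out each library in turn. Where that leaves 1 library in a group, its spread is taken to be that of the remaining groups. The libraries of each group differed by more than counting noise (chi-square per degree of freedom of 33.6 to 287), so none was treated as a library deposited more than once. Whether they are separate cultures is not stated. Promoter sequences are from RefSeq on GRCm38.p6, and 6 of the 10 genes matched an entry.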

Additional observations from a re-analysis of the deposited data

How the results depend on the processing

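With 2 libraries a group, single libraries and the estimate of spread decide many calls. Of the 10 early genes the main test called 3, 3 and 2 after LPS in wild type, Ing4-/- and Socs1-/-. Of all genes it called 2.89%, 8.02% and 1.98% there, in either direction. It called 0 of the 10 in the 4 comparisons of knockouts and in both differences of response. Leaving out 1 library in turn moved the counts after LPS in every genotype. It also moved those of LPS-treated Socs1-/- against wild type and of its difference of response, and the other 4 counts did not move. The share of all genes called changed with the library left out. DESeq2 called 5 in Ing4-/- and 8 in Socs1-/- after LPS (17.6% and 6.74% of all genes). In the untreated knockouts it called 1 each (0.873% and 0.655%). Against wild type it called 1 and 3 in LPS-treated Ing4-/- and Socs1-/- (0.965% and 1.64%). Limma-voom called 1 in LPS-treated Socs1-/- against wild type (0.188% of all genes). Without a filter the counts were 5, 8 and 9 after LPS, 6 and 6 in the untreated knockouts, 4 and 8 in the treated ones, and 2 and 4 for the differences of response. That fit called 8.69%, 10.8% and 6.11% of 23947 genes after LPS, 2.15% and 1.79% in the untreated knockouts, 2.25% and 3.84% in the treated ones, and 0.109% and 0.267% for the differences of response. A mean of at least 5 CPM left 1 call after LPS in Socs1-/- (2.4% of 9538 genes), since Nr4a3 does not reach it. A fit to the groups compared gave 5, 5 and 0 after LPS (18.2%, 15.2% and 0% of its genes) and 2 in untreated Ing4-/- (1.48%). An adjusted p of 0.01 left 1 in wild type.

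The replicate numbers were treated as names only, since nothing in the labels ties equal numbers together. Differences between the first and second library correlated at 0.447 to 0.601 between the 2 treatments of a genotype and at -0.129 to 0.156 between genotypes. With a replicate block the counts after LPS were 3, 4 and 3 (3.48%, 9.79% and 2.04% of all genes), adding Ier2 in both knockouts, and 0 elsewhere. With a replicate block within genotype they were 3, 5 and 6 (14.2%, 27.2% and 6.02% of all genes).

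Of the 48 changes given in the text, 6 turned direction, each without the first LPS-treated Socs1-/- library. Over the left-out libraries the change of Nr4a1 with LPS in Socs1-/- ranged from -1.05 to 5.35, and its difference of response from -0.29 to 6.11. Without the second LPS-treated Socs1-/- library, the LPS change in Socs1-/- was 5.97 for Egr2, 5.77 for Egr3 and 5.35 for Nr4a1. These values rest on the first treated library alone. The difference of LPS-treated Socs1-/- from wild type ranged from -0.33 to 2.55 for Egr1, from -1.13 to 3.66 for Egr2, from -0.39 to 5.33 for Egr3 and from -0.26 to 6.14 for Nr4a1. The cause was not tested. Among the changes not given in the text, 5 more turned without that library: Nr4a2 after LPS in Socs1-/- (0.71 to -1.98), Nr4a2, Ier2 and Ier5 in LPS-treated Socs1-/- against wild type (2.16 to -0.53, 0.49 to -0.31 and 0.45 to -0.35), and the difference of response of Nr4a2 (0.61 to -2.08). Of these changes, 26 turned without some other library, all of them 1.51 or smaller in size with all libraries. Under the other settings 383 values of 48 single-gene changes kept their side of the threshold, 65 passed where the main did not, and 5 lost the call, with 0 reversed. Scaling by raw library totals kept the order of group means in 5 of the 10 genes and upper-quartile scaling in 8. For genes near 3 counts per library, such as untreated Nr4a3, depth limits what can be measured.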

Other observations

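Among the 18 genes more than 4-fold higher in the first LPS-treated Socs1-/- library than in each of the other 11, 14 were not among the 10 early genes. The leading ones were Fosb, an AP-1 subunit, at 22.5 CPM against a highest other value of 0.737 CPM, and Arc, a synaptic early gene, at 87.3 against 4.82 CPM. Errfi1, a feedback inhibitor of the EGF receptor, stood at 983.6 against 120.0 CPM, and Btg2, an antiproliferative early gene, at 346 against 47.5 CPM. Fosl2, another AP-1 subunit, stood at 815 against 185 CPM and the chaperone gene Dnajb1 at 200.2 against 44.9 CPM. Others were Kcnd1, Npnt, Sele, Tspoap1, Gem, Bcar1 and Gm8818, at 4.06-fold to 7.05-fold. These genes were named after their values were seen, and no test was made.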
